A study of Homo sapiens with 18 samples.

Results

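The hypoxia-inducible factor (HIF) subunits, the hydroxylases that sense oxygen for them and the VHL protein that recognises hydroxylated HIF were followed in HCT116 cells between a sparse and a crowded culture. The 10 genes were chosen by symbol, with earlier results of these data known. All of them are among the 38055 genes of the whole transcriptome table. They are the alpha subunit genes HIF1A, EPAS1 and HIF3A, the beta subunit genes ARNT and ARNT2, the prolyl hydroxylase genes EGLN1, EGLN2 and EGLN3, the asparaginyl hydroxylase gene HIF1AN and VHL. HCT116 is an established human colorectal carcinoma line, used here as wild type and with no drug or gene knockout. Cells were grown in plates in McCoy's 5A medium with serum and harvested on day 3, at 50% confluency, or on day 5, at 250% confluency, with 3 libraries per day that the labels call biological replicates. Values above 100% describe cells stacked on each other. Time in culture and density changed together, so their contributions cannot be told apart, and all cells came from 1 line. Day 7 whole transcriptome values were not used here.

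HIF is a heterodimer of an alpha and a beta subunit that binds DNA and switches on genes for glycolysis, blood vessel growth and survival at low oxygen. When oxygen is present, the EGLN enzymes (also called PHD1 to PHD3) hydroxylate prolines of the alpha subunit, VHL binds the hydroxylated protein and its ubiquitin ligase marks it for destruction, while HIF1AN (also called FIH) hydroxylates an asparagine and blocks contact with the coactivators. This control acts on protein, which these RNA libraries do not measure, and EGLN1 and EGLN3 are themselves known HIF target genes.

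Between day 3 and day 5, RNA of EGLN3, EPAS1 and EGLN1 rose 6.95-fold, 3.98-fold and 2.88-fold as ratios of the day means, ARNT and ARNT2 rose by 0.73 and 0.72 on the log2 scale, HIF1AN rose by 0.30, and HIF1A fell by 0.63. These 7 of the 10 genes passed an adjusted p of 0.05 in limma, 6 higher and 1 lower on day 5. EGLN2 and VHL did not pass and HIF3A was near the detection limit. Change was common in these cells: of the 20129 genes tested, 56.9% passed, 29.3% higher and 27.6% lower on day 5. The count of 7 of 10 is therefore to be read against that background. Of the genes tested, 10.2% passed and were at least 2-fold higher, and of the 10 genes 3 were. Because the 10 genes were chosen with earlier results known, neither count is separate evidence about them. On the recovered reads, edgeR called 9 of the 10 against 61.0% of genes, and limma called 6 of the 10 against 50.7% after a correction for transcript length and GC content that is described with the libraries. EGLN3 had rank 57, EPAS1 rank 244 and EGLN1 rank 674 among all genes tested, ordered by the log2 fold change from the largest rise.

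HIF dimers recognise a short core that reads ACGTG or GCGTG, and the sequences around such a core in the promoters of the genes that moved most, or that are compared with them, are given here so that the compared genes can be seen beside their values. Windows from 250 bases before to 50 bases after the annotated start were taken from RefSeq (GRCh38.p14). An entry was found for 8 of the 10 genes, with 12 windows because some genes have several starts, and the genes with no entry were ARNT2 and VHL. Each is written 5′ to 3′ on the strand of the gene, with the core in capitals.
EGLN1: ccgtggtgtACGTGcagagcgcg
EPAS1: cctgccggcGCGTGcccgcccac
HIF1A: ctgagagcgGCGTGggctggggt
EGLN2: ggcgcggtcACGTGcccaccggg
The EGLN1 core began 13 bases before the start (chr1:231422287-231422309, minus strand), that of EPAS1 117 bases before it (chr2:46297281-46297303, plus strand), that of HIF1A 204 bases before it (chr14:61695300-61695322, plus strand) and that of EGLN2 48 bases before it (chr19:40799134-40799156, plus strand). In EGLN2 the letters CACGTG form a palindrome, so the same site was also counted on the other strand. HIF3A held 3 GCGTG matches, and none was found in the windows of ARNT, HIF1AN and EGLN3. Searching both strands, ACGTG occurs in 21.4% of all 35116 promoters of this length, GCGTG in 36.5% and either of them in 48.4%. A match describes letters in a window and is not a binding site. Of the genes with a match, EGLN1 and EPAS1 rose, HIF1A fell, and EGLN2 and HIF3A did not pass the threshold, and of those with none, EGLN3, ARNT and HIF1AN rose.

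The 6 libraries held between 27470978 and 56689369 reads on genes, with both extremes on day 3. The shallowest library, day 3 replicate 3, also had the highest total after normalization (38942641 against 34008467 to 35043456 in the others). For the 10 genes, its effect is given wherever it decided a direction or a call. For genes of the other lists, its effect is not given. Of the epithelial markers checked, 6 of 7 passed the filter on low values, with CDH1, KRT8, KRT18, KRT19 and CDX2 higher on day 5, EPCAM at a log2 fold change of 0.00 and VIL1 near 0. Of the markers of other cell types, 8 of 9 were in the table and 4 passed the filter. PTPRC and CD3E were at or near 0, and COL1A1 and VWF were higher on day 5. The sum of those 8 markers ran from 524.5 to 630.4 on day 3 and from 1170.2 to 1240.1 on day 5, nearly all of it COL1A1, and its part in the results was not tested. Across genes, the log2 fold change followed transcript GC content (Spearman's rho 0.43) and length (0.28), a description over genes that share the same 6 libraries. For the 10 genes, values after removing these trends are given beside the result. Among the markers, the correction turned CDX2 to -0.18 and ended its call, brought EPCAM past the threshold (0.24, adjusted p 0.0208 in limma), ended the call of VWF (0.42) and left COL1A1 at 0.36.

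EPAS1 encodes HIF-2 alpha and lies at chr2:46293667-46386697 on the plus strand of GRCh38, the build of all gene positions given here. Its normalized read counts on day 3 were 377, 508 and 513, and on day 5 they were 1715, 1882 and 1960. Every day 5 library was more than 3 times the highest day 3 library. The means were 466 ± 77.2 and 1852 ± 125 (SD, n = 3 each), a log2 fold change of 2.00 with a standard error of 0.14 and an adjusted p of 0.000235 in limma. The 95% interval ran from 1.65 to 2.35. The rise was 1.64 after correction for length and GC content.

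HIF1A encodes HIF-1 alpha, the alpha subunit with the highest RNA level here, at chr14:61695513-61748259 on the plus strand. Day 3 libraries held 5836, 6526 and 7051 normalized read counts of HIF1A, and day 5 libraries 4179, 4101 and 4255. All day 5 values lay below all day 3 values and were close together, with a coefficient of variation of 1.84% against 9.42% on day 3. The mean went from 6471 ± 609 to 4178 ± 77.1 (SD, n = 3 each), a ratio of 0.646 and a log2 fold change of -0.63 (95% interval -0.86 to -0.40), with an adjusted p of 0.0021 in limma. After the length and GC correction the fall was smaller, at -0.36, with an adjusted p of 0.0426 in limma. In bulk RNA, fewer cells carrying a transcript and less of it per cell cannot be told apart.

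HIF3A (chr19:46297042-46343433, plus strand) encodes another alpha subunit, some forms of which lack the activation region and limit the other subunits. It was barely detected: 18, 30 and 2 reads on day 3 and 10, 17 and 21 reads on day 5. Normalized, these were 15.8, 18.5 and 2.84 on day 3 and 10.8, 18.2 and 21.8 on day 5, and the days overlapped. The log2 fold change of 0.68 had a 95% interval from -0.93 to 2.29 and an adjusted p of 0.412 in limma. Without day 3 replicate 3, the library with 2 reads, it was -0.067 (adjusted p 0.865), so no direction was detectable at this depth. After the length and GC correction it was 0.22, also without passing.

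**Figure D1:**
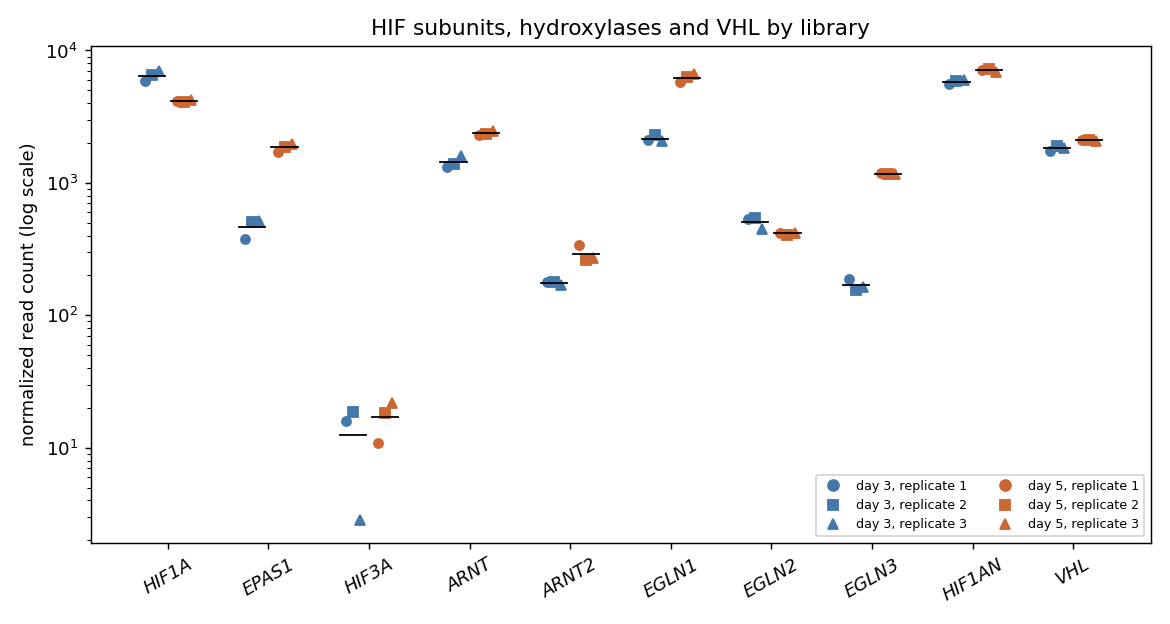
Normalized read counts (vertical axis, log scale) of the 10 genes in each library of day 3 (blue) and day 5 (orange); marker shape gives the replicate number and the black line the mean of 3 libraries. EPAS1, EGLN1 and EGLN3 lie well above their day 3 values on day 5, HIF1A lies below, and HIF3A overlaps.

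The HIF1A locus also gave an RNA from the opposite strand. HIF1A-AS3, a long noncoding RNA at chr14:61707298-61751163 on the minus strand, overlaps most of the HIF1A gene. Its day 3 libraries held 7, 0 and 1 reads, and its day 5 libraries held 151, 233 and 169. In normalized read counts these were 6.15, 0 and 1.42 against 164, 250 and 175, so HIF1A-AS3 went from the level of a few reads to a clear signal in every day 5 library. It had the second largest rise of all genes tested (rank 2 of 20129), with a log2 fold change of 6.23 on the log2(value + 1) scale and an adjusted p of 0.000722 in limma. It passed the filter only through day 5, the size depends on the pseudocount, and the value ran from 5.54 to 7.62 over the alternatives. Reads were assigned by strand, so the antisense reads were not pooled with those of HIF1A. At the other end of the gene, HIF1A-AS1 had between 0 and 7 reads per library on both days. Even on day 5, HIF1A-AS3 had a mean of 196 ± 46.7 (SD, n = 3) normalized read counts, against 4178 for HIF1A.

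**Figure D2:**
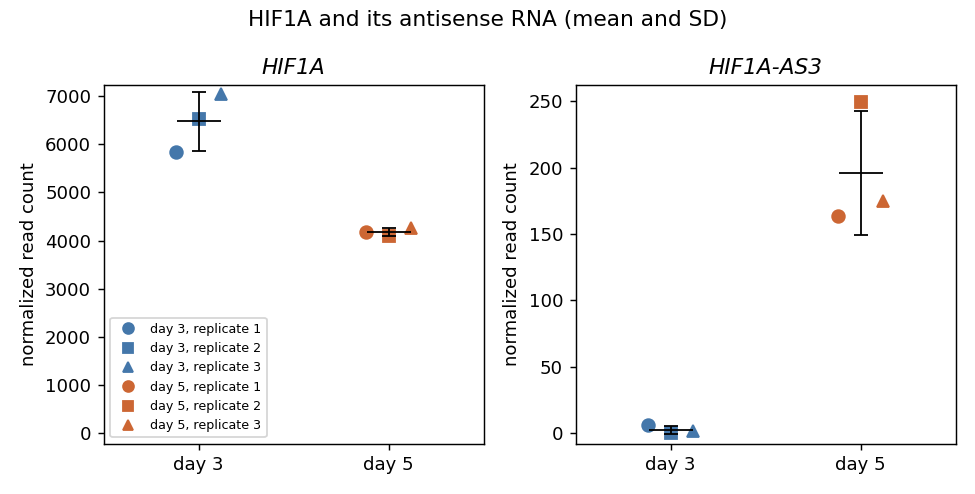
Normalized read counts of HIF1A (left) and of HIF1A-AS3 (right) in the 3 libraries of each day, on linear axes with different ranges; the horizontal mark is the mean and the bar the SD. HIF1A falls from between 5836 and 7051 to between 4101 and 4255, while HIF1A-AS3 goes from at most 6.15 to between 164 and 250.

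The beta subunits pair with the alpha subunits and are not subject to this oxygen-dependent destruction. ARNT (HIF-1 beta, chr1:150809713-150876708, minus strand) measured 1315, 1395 and 1589 normalized read counts on day 3 and 2307, 2350 and 2456 on day 5. ARNT2 (chr15:80404350-80597933, plus strand), its close relative best known from the nervous system, measured 178, 177 and 169 on day 3 and 337, 262 and 270 on day 5. Neither gene overlapped between days. ARNT rose by 0.73 on the log2 scale (standard error 0.096, adjusted p 0.0013 in limma) and ARNT2 by 0.72 (standard error 0.12, adjusted p 0.0030 in limma). The rise of ARNT was 0.62 after the length and GC correction, but that of ARNT2 was 0.34 and no longer passed, with an adjusted p of 0.0656 in limma.

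Of the EGLN genes, EGLN3 and EGLN1 rose and EGLN2 did not pass the threshold. EGLN3 (chr14:33924227-34462774, minus strand) encodes PHD3, which is known to be strongly induced in hypoxia. Its normalized read counts were 188, 156 and 163 on day 3 and 1182, 1173 and 1168 on day 5. The day 5 libraries were within a coefficient of variation of 0.612%, far from the highest day 3 value. They held 1090, 1094 and 1128 reads, and counting error alone is wider than this at such numbers. The closeness is therefore not a measure of the spread between cultures. The log2 fold change of EGLN3, 2.79 (standard error 0.09, 95% interval 2.56 to 3.03, limma adjusted p 9.04e-05), was the largest of the 10 genes. SPTSSA, a gene on the same strand that the long annotated EGLN3 model overlaps, was at 853, 879 and 767 on day 3 and 668, 701 and 874 on day 5, with overlap. Other genes in the table that overlap one of the 10, apart from those named with HIF1A and HIF1AN, had at most 5 reads in any library.

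EGLN1 (chr1:231363751-231422287, minus strand) encodes PHD2, regarded as the main HIF prolyl hydroxylase at normal oxygen. Day 3 libraries held 2112, 2287 and 2078 normalized read counts, and day 5 libraries 5810, 6254 and 6610. The day 5 libraries were all far above the highest day 3 library, and the log2 fold change was 1.53 (standard error 0.09, 95% interval 1.31 to 1.74, limma adjusted p 0.000179). The length and GC correction left EGLN1 at 1.43 and EGLN3 at 2.63. Another annotated protein-coding gene spans nearly all of EGLN1 on the same strand and had no values here. How reads that match both genes were assigned is not known.

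EGLN2 (chr19:40798996-40808434, plus strand) encodes PHD1, which is not known as a hypoxia-induced gene. It measured 532, 544 and 447 normalized read counts on day 3 and 422, 407 and 417 on day 5. All day 5 values were below all day 3 values by a small margin. The log2 fold change of -0.28 (95% interval -0.53 to -0.038) missed the threshold with an adjusted p of 0.0524 in limma. The call depended on the setting. It passed in edgeR on the recovered reads (-0.31, adjusted p 0.0138), in DESeq2 (-0.30, adjusted p 0.0358), without day 3 replicate 3 (-0.37, limma adjusted p 0.0080), and after the length and GC correction, where the value was larger (-0.73, limma adjusted p 0.0046). A read-through transcript, RAB4B-EGLN2, shares its exons and is not among the genes with values here. How reads that match both were assigned is not known.

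HIF1AN (chr10:100529072-100559998, plus strand) encodes the asparaginyl hydroxylase. It had 5535, 5835 and 5975 normalized read counts on day 3 and 7177, 7308 and 6916 on day 5, without overlap. The log2 fold change was 0.30 (standard error 0.07, 95% interval 0.12 to 0.49, limma adjusted p 0.0147). After the length and GC correction it was 0.0062 (adjusted p 0.946 in limma), and the call was also lost without day 5 replicate 1 (0.30, adjusted p 0.0517) or day 5 replicate 2 (0.29, adjusted p 0.0602). Its neighbour NDUFB8, a respiratory complex I subunit gene that overlaps its start on the other strand, had lower values on day 5 (656, 731 and 718 against 919, 880 and 941).

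VHL (chr3:10141778-10153667, plus strand), the substrate receptor of the ligase, had 1730, 1900 and 1844 normalized read counts on day 3 and 2103, 2109 and 2071 on day 5. The groups did not overlap, yet the difference was small: a log2 fold change of 0.20 (95% interval 0.018 to 0.38) with an adjusted p of 0.0617 in limma. VHL passed in edgeR (0.19, adjusted p 0.0218), in DESeq2 (0.20, adjusted p 0.0378) and when libraries were scaled by their totals (0.27, limma adjusted p 0.0300), and it was 0.088 after the length and GC correction. Of the 10 genes, 9 had libraries that did not overlap between days, against 65.0% of all genes tested. They were 7 higher on day 5, against 33.4% of genes, and 2 lower (HIF1A and EGLN2), against 31.7%.

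**Figure D3:**
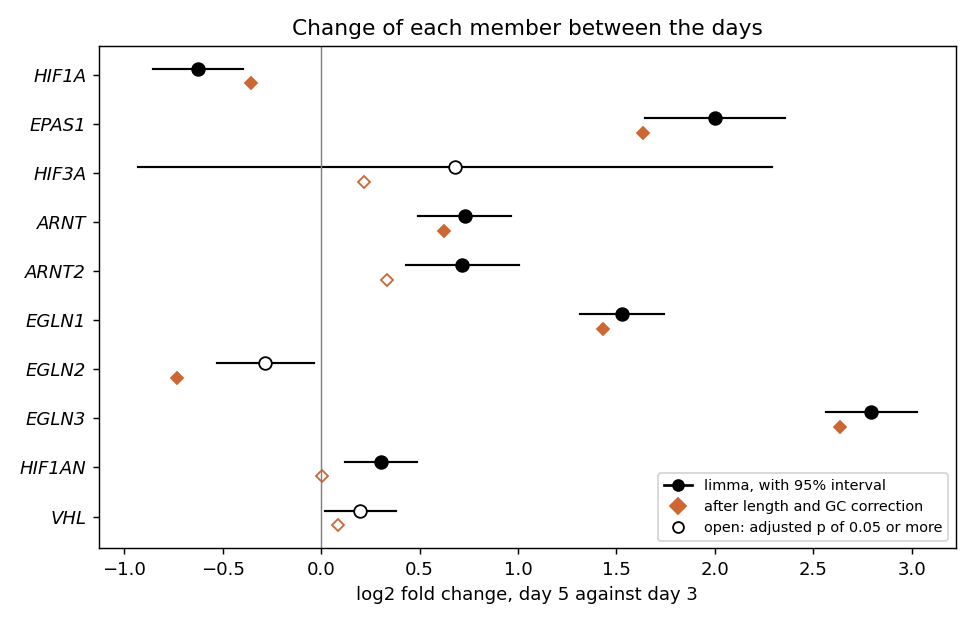
Log2 fold change of each gene on day 5 against day 3 (horizontal axis) by limma with its 95% interval (black) and after correction for transcript length and GC content (orange); open symbols did not reach an adjusted p of 0.05. EGLN3, EPAS1 and EGLN1 stay above 1 in both, HIF1AN moves to near 0 and EGLN2 from -0.28 to -0.73.

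Ratios of related genes within a library carry no scaling factor, which cancels. Trends with transcript length and GC content do not cancel. Neither the ratios nor the levels and shares that follow were corrected for these trends. The log2 ratio of EPAS1 to HIF1A was -3.95, -3.68 and -3.78 on day 3 and -1.28, -1.12 and -1.12 on day 5, a difference of 2.63, or 6.18 times. EGLN3 against EGLN2 changed sign, from -1.50, -1.80 and -1.45 to 1.48, 1.52 and 1.48, a difference of 3.08. EGLN1 gained 1.81 on EGLN2, and EGLN3 gained 1.27 on EGLN1, again without overlap between days. HIF1AN gained 0.10 on VHL, the smallest change among the ratios that did not overlap. The exact permutation p was 0.1 for each of these 5 ratios, the smallest that 3 against 3 libraries can give, and 0.12 after adjustment over the 6 ratios. With the length and GC correction, the log2 fold changes were 0.0062 for HIF1AN and 0.088 for VHL, the reverse of their order without it. For EPAS1 and HIF1A they were 1.64 and -0.36. ARNT2 to ARNT was -2.88, -2.97 and -3.23 on day 3 and -2.77, -3.16 and -3.18 on day 5. These overlapped, with a difference of -0.013 and an exact permutation p of 1, and its leave-one-out values ran from -0.15 to 0.061.

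**Figure D4:**
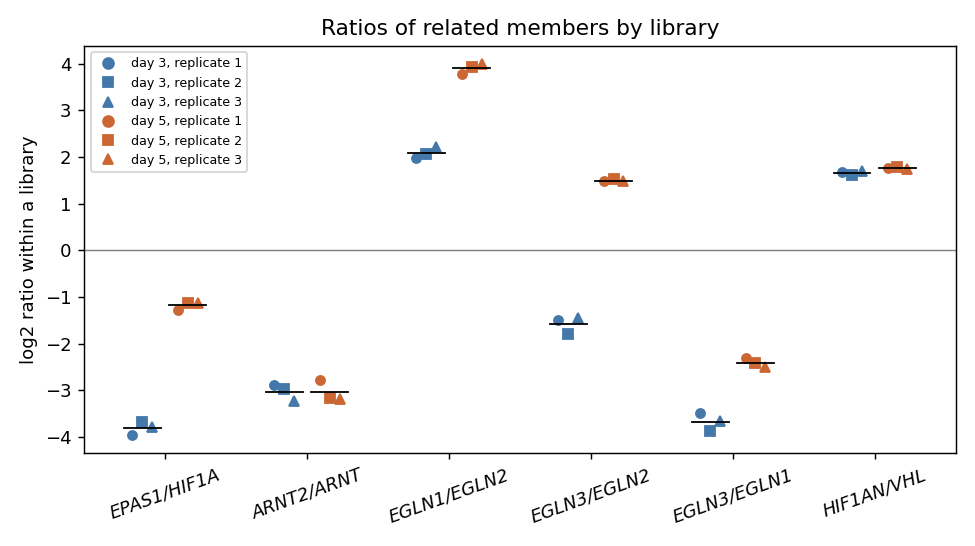
Log2 ratio of normalized read counts of paired genes within each library (vertical axis) for day 3 (blue) and day 5 (orange), with the mean of 3 libraries as a black line. EPAS1/HIF1A moves from between -3.95 and -3.68 to between -1.28 and -1.12, EGLN3/EGLN2 crosses 0, and ARNT2/ARNT overlaps between days.

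Levels of different genes were compared per kilobase of annotated exon. On day 3, HIF1A stood highest at 1256 ± 118 (SD, n = 3) normalized read counts per kilobase, followed by HIF1AN (416 ± 16.2), EGLN1 (401 ± 20.8), VHL (365 ± 17.3), ARNT (222 ± 21.8), EGLN2 (77.2 ± 8.09), EPAS1 (63.9 ± 10.6), EGLN3 (22.9 ± 2.29), ARNT2 (22.6 ± 0.683) and HIF3A (1.48 ± 1.00). Neighbours whose libraries overlapped were HIF1AN and EGLN1, EGLN2 and EPAS1, and EGLN3 and ARNT2, so their order on day 3 was within the spread. On day 5, EGLN1 stood first at 1157 ± 74.5 and HIF1A second at 811 ± 14.96, then HIF1AN (513 ± 14.3), VHL (419 ± 4.10), ARNT (368 ± 11.9), EPAS1 (254 ± 17.2), EGLN3 (159 ± 0.976), EGLN2 (63.2 ± 1.13), ARNT2 (37.4 ± 5.36) and HIF3A (2.02 ± 0.664), and no neighbours overlapped. The place of a gene depends on which transcript length is used: with the longest annotated transcript, EGLN1 passes HIF1AN on day 3, and on day 5 ARNT passes VHL and EGLN3 passes EPAS1.

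Within the alpha subunits, HIF1A made up 95.1% ± 0.426 of the summed level per kilobase on day 3 and 76.0% ± 1.22 on day 5 (SD, n = 3 each). EPAS1 went from 4.81% ± 0.428 to 23.8% ± 1.17, while the summed level itself went from 1322 ± 127 to 1067 ± 26.6 per kilobase. Within the beta subunits, ARNT2 held 9.29% ± 1.04 and 9.25% ± 1.40, as both genes rose together and their sum went from 245 to 405 per kilobase. The sum of the EGLN genes went from 501 ± 26.4 to 1379 ± 73.1 per kilobase. EGLN2 made up 15.4% ± 1.01 of it on day 3 and 4.59% ± 0.289 on day 5, and EGLN3 4.59% ± 0.560 and 11.6% ± 0.689. These shares depend on the length used: with the longest transcript, EGLN2 held 18.9% and 5.47% and EGLN3 8.64% and 21.1%, and with MANE Select lengths EGLN2 held 30.1% and 9.58% and EGLN3 7.80% and 21.0%. The annotated exons of EGLN3 together span 7363 bases and its longest transcript 2849.

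RNA of the subunits that work with VHL in the ligase was lower on day 5. The ligase list holds ELOB and ELOC (the elongins that bind VHL), CUL2 (the scaffold), RBX1 (the ring subunit) and NEDD8 (the small protein that activates the cullin). All 5 were lower on day 5 and passed the test, against 27.6% of all genes tested. Their median log2 fold change was -0.96, against 0.01 over all genes tested. The list was chosen with earlier results of these data known, so neither its count nor its median is separate evidence of a direction. ELOC went from 3818, 3711 and 4369 normalized read counts to 1668, 1592 and 1798, a log2 fold change of -1.23 with an adjusted p of 0.000295 in limma. The log2 fold changes of the others were -0.999 for NEDD8, -0.96 for ELOB, -0.62 for RBX1 and -0.56 for CUL2, each without overlap. Of all genes tested, 31.7% were lower on day 5 without overlap. The 5 genes remained lower after the length and GC correction, with a median of -0.78 and RBX1 at -0.36.

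Genes that act on the HIF proteins or with them moved in both directions. Of 14 coactivators and modifiers tested, 9 were higher, 3 were lower and 2 did not pass. Over all genes tested, 29.3% were higher and 27.6% lower. The median log2 fold change of the list was 0.62. CITED2, an inhibitor that competes with HIF for its coactivators and is itself a HIF target, went from 352, 384 and 400 to 1014, 1073 and 944 normalized read counts (log2 fold change 1.41, limma adjusted p 0.000207). The coactivator genes CREBBP and EP300 rose by 1.16 and 1.06, and OS9, a lectin of the endoplasmic reticulum that has also been tied to HIF hydroxylation, rose by 1.15. RACK1, a ribosomal scaffold protein with the highest mean of the list, was at -0.22 on the log2 scale and did not pass (adjusted p 0.231 in limma). The 3 that fell, named after their values were seen, were SENP1 (-0.93), a SUMO protease, SIAH1 (-0.35), a ubiquitin ligase for prolyl hydroxylases, and USP33 (-0.25), a deubiquitinase. After the length and GC correction, 4404 of 19288 genes were called higher and 5378 lower. The median of the list moved to 0.16, with 5 of its genes higher and 2 lower. The 2 lower were SENP1 (-0.98) and RACK1, which then passed (-0.36, adjusted p 0.0355 in limma), while SIAH1 (-0.088) and USP33 (-0.058) lost their calls. CREBBP, EP300 and OS9 kept theirs at 0.53, 0.72 and 0.76.

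The RNA of HIF target genes was higher in the same libraries. All 16 listed targets passed and were higher on day 5, against 29.3% of all genes tested. Their median log2 fold change was 2.54, and 2.42 after the length and GC correction. CA9 (carbonic anhydrase IX) was at most at 4.25 normalized read counts on day 3 and between 178 and 214 on day 5. It held 1, 1 and 3 reads on day 3 and passed the filter only through day 5. NDRG1 rose by 4.68, DDIT4, a brake on mTORC1, by 4.49 and ANKRD37 by 4.10 on the log2 scale, and the abundant glycolytic genes LDHA and PGK1 by 1.10 and 1.41. Against this list, EGLN3 at 2.79 lay above the median of the targets and EGLN1 at 1.53 below it. That the targets rise in these libraries was known when the list was chosen, so their count and their median are not separate evidence of a direction.

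**Figure D5:**
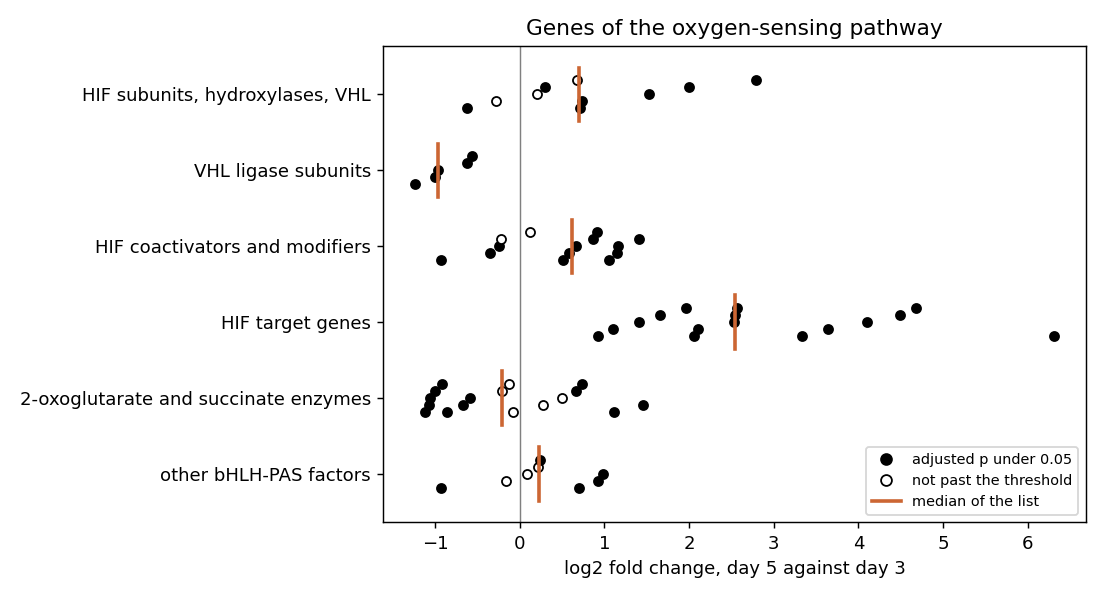
Log2 fold change on day 5 against day 3 (horizontal axis) of every gene tested in the HIF subunit, hydroxylase and VHL set and in 5 lists of related genes; filled points passed an adjusted p of 0.05 and the orange line is the median of the list. The ligase subunits all lie below 0, the target genes all lie above 0, and the other lists hold both directions.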

How the data were processed

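The authors prepared rRNA-depleted, strand-marked libraries, mapped the paired reads by strand to Ensembl release 99 genes of hg38 in CLC Genomics Workbench, and deposited a normalized signal per gene and library. The methods name TMM, while the column names of the table are those of DESeq2. In each library 100% of the deposited signal values equalled a whole number of reads times a constant (tolerance 0.02 reads), so read counts could be recovered. The table also lists the authors' own fold changes and p-values, which were not used. Small RNA tables were not used.

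Tests used limma 3.58.1 (R 4.3.3) on log2(value + 1), unpaired, for 20129 genes kept by a filter (3 or more of the 6 libraries at 10 or above), two-sided, with Benjamini-Hochberg adjustment over all genes tested and a threshold of 0.05. Fold changes on this scale understate the change of weakly expressed genes. The normalized signal of a gene is called its normalized read count. On the recovered reads, edgeR 4.0.16 called 12280 genes (61.0%) and limma 11450. For ratios, the two-sided exact permutation test was used. DESeq2 1.42.0, library totals, TMM, a pseudocount of 0.1, no filter, the replicate number as a block, leaving out each library and the longest transcript were set as alternatives. The correction for transcript length and GC content (loess per library, values for 95.8% of genes tested) and MANE Select lengths were added after seeing the data. Loci and lengths came from GENCODE release 44 on GRCh38, which may differ from the authors' gene models. The limma and edgeR steps were first tested on simulated data. Python 3.11.15, pandas 2.3.3, numpy 2.4.6, scipy 1.17.1 and matplotlib 3.10.9 were used.

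The 10 genes (members) and the lists were chosen with earlier results of these data known. Their counts and medians are therefore not separate evidence of a direction. All members are named. Of each other list, up to 4 genes that passed with the largest change and up to 2 with the highest mean are named, beside genes overlapping a member. P-values measure the spread between libraries of 1 cell line, and counting limits cover counting error only.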

Additional observations from a re-analysis of the deposited data

How the results depend on the processing

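The number of the 10 genes past the threshold was 7, and 6 to 9 over all 14 alternatives. HIF1A, EPAS1, ARNT, EGLN1 and EGLN3 kept their direction and their call in each. Genes called numbered 11450 of 20129, and 9235 to 12280 over the alternatives, which did not all test the same genes. With no filter, 9235 of 38055 genes and 6 of the 10 were called. In DESeq2 these were 11110 of 25512 genes and 9 of the 10. The length and GC correction gave 9782 of 19288 genes and 6 of the 10. All other alternatives tested the 20129 genes. Leaving out 1 library gave 9811 to 11380 genes in all and 6 to 8 of the 10.

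HIF3A reversed without day 3 replicate 3 (-0.067), and leaving out 1 library gave -0.067 to 1.11. The ratio of ARNT2 to ARNT, near 0, reversed without day 3 replicate 1 (0.061), day 3 replicate 2 (0.015), day 5 replicate 2 (0.050) or day 5 replicate 3 (0.058), with leave-one-out values from -0.15 to 0.061. In the level order, 2 of the 10 changed place on day 3 with the longest transcript, with MANE Select lengths and without day 3 replicate 1, and leaving out 1 library gave 0 to 2 changes. On day 5, 4 changed place with the longest transcript and with MANE Select lengths. HIF1AN also lost its call with no filter (adjusted p 0.0981 in limma).

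Deviations of libraries with the same replicate number correlated at -0.011, 0.034 and 0.023, so the numbers were not taken to pair the libraries. The paper did use a paired t-test for its small RNA reads, day 7 against day 3. With the replicate block, limma called 10533 genes and 6 of the 10, HIF1AN no longer among them (0.30, adjusted p 0.0536). For ratios, 3 pairs cannot give an exact p under 0.25. At 2 to 30 reads, depth limits HIF3A.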

Other observations

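Relatives of the HIF subunits and the enzymes around the hydroxylases' substrate were also in the table. Of 11 other bHLH-PAS factors, some of which can partner ARNT, 8 were tested. Of these, 4 were higher, 1 was lower and 3 did not pass. Over all genes tested, 29.3% were higher and 27.6% lower. The median log2 fold change of the list was 0.23. After the length and GC correction the median was 0.12, with 4 higher and 2 lower. Of all 19288 genes with corrected values, 4404 were called higher and 5378 lower. NPAS2, a circadian factor, went from 783, 663 and 723 normalized read counts on day 3 to 1434, 1398 and 1456 on day 5, without overlap (0.98 on the log2 scale, adjusted p 0.000393 in limma). SIM2 rose by 0.93, and by 0.38 after that correction. NPAS1, at low levels, rose by 0.69 with libraries that overlapped, and its value was -0.09 after the correction, its call lost. ARNTL2, a partner of CLOCK, fell by 0.93. AHR, the dioxin receptor that dimerises with ARNT, rose by 0.25 (limma adjusted p 0.0454), or 0.40 after the correction, and CLOCK was at -0.17 on the log2 scale without passing (adjusted p 0.136 in limma).

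The hydroxylases use 2-oxoglutarate and release succinate. Of 17 genes for enzymes around these compounds, FH (fumarase) among them, 4 were higher on day 5, 8 were lower and 5 did not pass. Over all genes tested, 29.3% were higher and 27.6% lower. The median log2 fold change of the list was -0.21. After the length and GC correction the median was -0.40, with 4 higher and 9 lower. The corrected calls over all 19288 genes were 4404 higher and 5378 lower. OGDH, the first subunit of 2-oxoglutarate dehydrogenase, went from 1177, 1394 and 1664 normalized read counts to 3938, 3654 and 3900 (log2 fold change 1.45, limma adjusted p 0.000451), and IDH2, a mitochondrial isocitrate dehydrogenase, rose by 1.12. Their corrected values were 0.98 and 0.73. IDH3A, a subunit of the NAD-dependent isocitrate dehydrogenase that was named after its values were seen, fell by 0.86. The succinate dehydrogenase genes moved in different directions: SDHD fell by 1.11, SDHB by 1.07 and SDHC by 0.58, whereas SDHA rose by 0.74. SDHC was named after its values were seen. These directions did not change after the correction, where SDHD was -0.62, SDHB -0.70, SDHC -0.45 and SDHA 0.55.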
